A study of Caenorhabditis elegans with 20 samples.

Results

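The 9 genes described here carry out the methionine cycle and the methylation route to phosphatidylcholine in *C. elegans*. They are the S-adenosylmethionine (SAM) synthases *sams-1*, *sams-3*, *sams-4* and *sams-5*, the S-adenosylhomocysteine hydrolase *ahcy-1*, the methionine synthase *metr-1*, the methylenetetrahydrofolate reductase *mthf-1* and the phosphoethanolamine methyltransferases *pmt-1* and *pmt-2*. They were taken by name, for their roles in these routes, from the 46925 genes of the expression table, and all 9 passed the filter for testing (a mean normalized count of at least 2, met by 17090 genes). The choice was made with earlier results of these data known. RNA was sequenced from whole dauers, larvae arrested in a long-lived diapause form, to ask which transcripts depend on the forkhead transcription factor DAF-16/FoxO in the intestine. The auxin-inducible degron system (AID2) removes a tagged protein only where the F-box protein TIR1(F79G) and its ligand 5-Ph-IAA are both present.

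All 4 conditions shared the insulin receptor mutation *daf-2(e1370)* and the endogenously tagged allele *daf-16(ot853)*, which fuses DAF-16 to mNG and AID. Animals with both components were of strain OH17582, which also carries *otSi2*, an insertion of *TIR1(F79G)::mRuby* driven by the intestinal promoter *ges-1p*, and grew on 100 μM 5-Ph-IAA. The 5-Ph-IAA alone condition was strain OH14654, which has no TIR1, on the same dose of ligand. TIR1 alone was OH17582 on the solvent without ligand, and the neither condition was OH14654 on the solvent without ligand. The solvent, 0.2% ethanol, was the same in all 4 conditions. Each condition had 5 biological replicates of about 24000 animals grown at 25°C for 3 days, and animals that had not arrested as dauers were picked off before collection, per the methods. The comparison of both components with 5-Ph-IAA alone therefore also compares 2 strains, while that with TIR1 alone is within 1 strain.

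The methionine cycle makes SAM, the methyl donor of most methylation reactions, and rebuilds methionine from the homocysteine that is left. In worms a large share of SAM is spent on phosphatidylcholine, the main membrane phospholipid. PMT-1 adds the first methyl group to phosphoethanolamine, and PMT-2 adds the later ones to give phosphocholine, which the Kennedy pathway turns into phosphatidylcholine. In *C. elegans*, a shortage of phosphatidylcholine is known to activate SBP-1, the SREBP transcription factor of lipid synthesis, and the intestine is the main site of fat storage and lipid synthesis.

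Values are normalized counts, in which DESeq2 size factors scale the reads of each library. Reads on genes numbered 3989669 to 15585703 in the libraries with both components, 10230512 to 12680810 with 5-Ph-IAA alone, 7401425 to 10209257 with TIR1 alone and 6249223 to 12323401 with neither. Replicate 5 with both components was the shallowest library, and ribosomal RNA genes took 21.4% of it. The targeted gene, *daf-16* (WBGene00000912), is degraded as protein, so its transcript does not check the labels. Its normalized count was 8334 ± 492 with both components, 8682 ± 281 with 5-Ph-IAA alone, 8764 ± 217 with TIR1 alone and 8451 ± 284 with neither (SD, n = 5 each). Its log2 fold change was −0.06 ± 0.04 (SE) with both components against 5-Ph-IAA alone (adjusted p = 0.302 from limma) and −0.07 ± 0.04 against TIR1 alone (adjusted p = 0.184). Under quantile normalization the log2 fold change against 5-Ph-IAA alone was 0.03 (adjusted p = 0.601 from limma). Intestinal markers summed to 16208 to 17948 with both components and to 9811 to 11017 over the 15 control libraries. Of 9 intestinal markers listed, 8 were found by symbol. None of the 6 dauer markers, a list that includes *daf-16* itself, was called in either comparison.

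The clearest change among the 9 genes was in the methyltransferases of phosphatidylcholine synthesis and in *ahcy-1*. Transcripts of *pmt-1*, *pmt-2* and *ahcy-1* were higher with both components than in each single-component control. *metr-1* and *mthf-1* were lower against 5-Ph-IAA alone and not called against TIR1 alone, and none of the 4 SAM synthases was called. *sams-1* was called higher in both comparisons when the replicate number was fitted as a block (adjusted p = 0.00335 and 0.00132 from limma). A gene was called at an adjusted p-value under 0.05 in limma's moderated test on log2(normalized count + 1), with Benjamini-Hochberg adjustment over all genes tested. Against 5-Ph-IAA alone 5 of the 9 genes were called (3 higher, 2 lower), where 19.7% of all genes tested were called, 11.3% higher and 8.37% lower. Against TIR1 alone 3 of the 9 were called, all higher, where 18.9% of all genes were called, 11.6% higher and 7.38% lower. At the additional 1.5-fold cutoff used in the study, *pmt-1* was the single gene of the 9 called in each comparison, against 9.17% and 8.88% of all genes. Under quantile normalization the calls over all genes were 1748 higher and 1906 lower against 5-Ph-IAA alone, where the deposited scaling gave 1938 and 1431, and 1747 higher and 1786 lower against TIR1 alone, where it gave 1976 and 1261. The 2 comparisons share the libraries with both components, so their results are not independent. Because the 9 genes were chosen with earlier results of these data known, their shares of calls are descriptions.

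**Figure D1:**
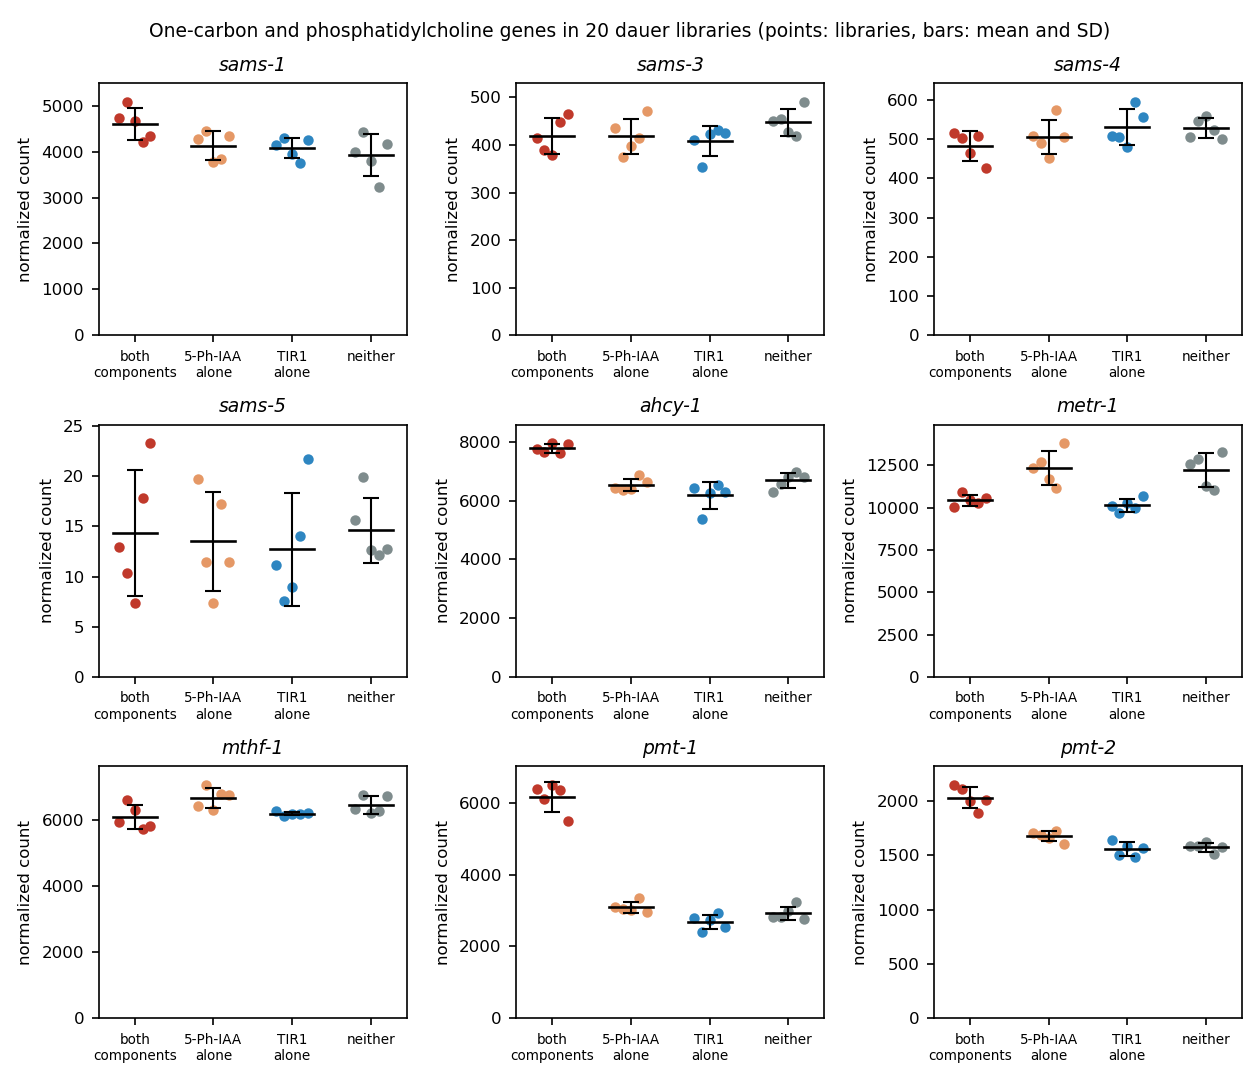
Normalized count (vertical axes, starting at 0) of each of the 9 genes in 20 libraries, by condition. Points are libraries, horizontal bars are means and error bars are SD (n = 5). For *pmt-1*, *pmt-2* and *ahcy-1* all 5 libraries with both components lie above all 15 controls, and for *metr-1* the conditions pair by strain.

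*pmt-1* (WBGene00022781, chromosome II, 5278090 to 5282523, minus strand, WBcel235) encodes the enzyme of the first methylation of phosphoethanolamine. Replicates 1 to 5 with both components had normalized counts of 6389, 6101, 6505, 6344 and 5486. The 5-Ph-IAA alone libraries had 3087, 3048, 3021, 3353 and 2949. Those with TIR1 alone had 2804, 2417, 2741, 2919 and 2544. All values with both components lay above every control value, and replicate 5, the shallowest library, was the lowest of them. Libraries with neither component had 2811, 2812, 2983, 3230 and 2765, within the range of the other controls. The fold change was 1.99 against 5-Ph-IAA alone (95% interval 1.84 to 2.15, log2 fold change 0.99 ± 0.05 SE, adjusted p = 3.63e-13 from limma). It was 2.30 against TIR1 alone (95% interval 2.13 to 2.48, log2 fold change 1.20 ± 0.05, adjusted p = 9.83e-15 from limma). Leaving out any 1 of the 20 libraries, the shallowest included, gave log2 fold changes of 0.97 to 1.04 and 1.16 to 1.24. The annotation lists 8 transcripts of *pmt-1*, which counts per gene do not separate.

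*pmt-2* (WBGene00018811, chromosome V, 4628580 to 4635263, plus strand) encodes the enzyme of the later methylations and changed less. With both components its normalized counts were 2150, 2106, 2001, 1893 and 2008. With 5-Ph-IAA alone they were 1707, 1689, 1661, 1724 and 1608, and with TIR1 alone 1645, 1506, 1588, 1486 and 1570. The groups did not overlap, and the gap between the lowest value with both components and the highest control, 1724, was small beside that of *pmt-1*. With neither component *pmt-2* had 1584, 1589, 1618, 1508 and 1577. The fold change was 1.21 against 5-Ph-IAA alone (log2 fold change 0.28 ± 0.04, adjusted p = 8.15e-06 from limma) and 1.30 against TIR1 alone (0.38 ± 0.04, adjusted p = 4.26e-08). Across the tested genes, 774 (4.53%) had all 5 values with both components above all 15 controls, as *pmt-1*, *pmt-2* and *ahcy-1* did, and 2.5% had all 5 below.

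The proportion of the first to the later methyltransferase transcript also differed within libraries. Per kb of exon, *pmt-1* over *pmt-2* was 2.49, 2.43, 2.72, 2.81 and 2.29 with both components. The ratio averaged 2.55 ± 0.214 with both components, 1.54 ± 0.0491 with 5-Ph-IAA alone, 1.44 ± 0.121 with TIR1 alone and 1.56 ± 0.136 with neither (SD, n = 5 each). Every library with both components had a higher ratio than every control. The ratio does not depend on the scaling of the libraries. The difference gave p = 0.00794 against each single-component control in a two-sided exact permutation test, the smallest p that 5 against 5 libraries allow (adjusted p = 0.0476 over 12 ratio tests). The ratios were chosen after the data were seen.

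*ahcy-1* (WBGene00019322, chromosome I, 6836469 to 6838140, plus strand) encodes the hydrolase that clears S-adenosylhomocysteine, the product and inhibitor of methyltransferases. Its normalized counts were 7767, 7658, 7957, 7624 and 7914 with both components, and 6439, 6366, 6402, 6868 and 6630 with 5-Ph-IAA alone. They were 6447, 5383, 6259, 6549 and 6284 with TIR1 alone and 6306, 6558, 6796, 6978 and 6798 with neither. All values with both components were above all controls, and replicate 2 with TIR1 alone stood below the rest. The fold change was 1.19 against 5-Ph-IAA alone (log2 fold change 0.25 ± 0.04, adjusted p = 7.93e-05 from limma) and 1.26 against TIR1 alone (0.34 ± 0.04, adjusted p = 1.38e-06). With the oocyte marker sum as a covariate, the first comparison gave an adjusted p of 0.0542 at a log2 fold change of 0.26.

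None of these 3 genes was called for either component alone. For 5-Ph-IAA alone against neither, 0 of the 9 genes were called by limma, edgeR or DESeq2, where limma called 0.041% of all genes, and 1 of the 9, *pmt-2*, had an unadjusted p under 0.05. In that comparison the log2 fold change of *pmt-1* was 0.08 ± 0.05 (adjusted p = 1) and that of *pmt-2* was 0.09 ± 0.04 (adjusted p = 0.899). For TIR1 alone against neither, *pmt-1* gave −0.12 ± 0.05 (adjusted p = 0.414) and *ahcy-1* gave −0.12 ± 0.04 (adjusted p = 0.286). The interaction, the effect of 5-Ph-IAA with TIR1 minus its effect without, was called and positive for 3 of the 9 genes, where it was called for 10.8% of all genes and positive for 7.17%. It was 1.12 ± 0.08 on the log2 scale for *pmt-1* (adjusted p = 9.03e-11), 0.37 ± 0.06 for *ahcy-1* (adjusted p = 1.16e-04) and 0.29 ± 0.06 for *pmt-2* (adjusted p = 6.41e-04).

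**Figure D2:**
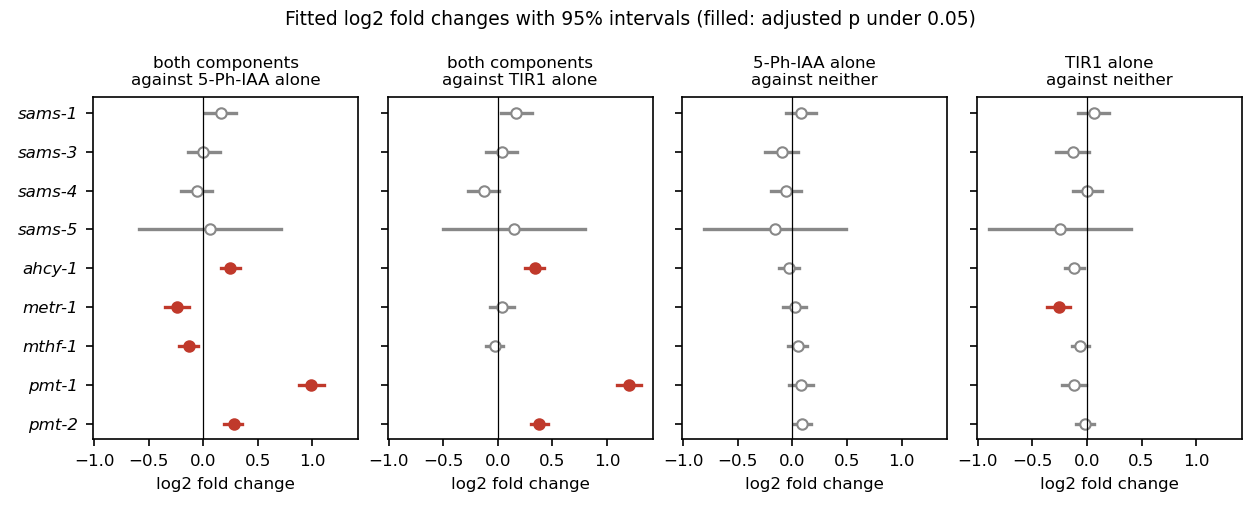
Fitted log2 fold change (horizontal axes) of the 9 genes in 4 comparisons, with 95% intervals as lines. Filled red points passed an adjusted p-value of 0.05. *pmt-1* lies near 1 in both comparisons of both components with a single component, and *metr-1* is filled and below 0 in the 2 comparisons between strains.

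Marker transcripts of several cell types, the intestine among them, moved in the same libraries. All 10 oocyte markers and all 6 yolk protein (*vit*) genes were higher with both components in each comparison. The oocyte sum was 2620 to 6545 with both components, against 1524 to 1920 with 5-Ph-IAA alone, 1649 to 2642 with TIR1 alone and 1591 to 2950 with neither. The yolk sum was 8617 to 53264 with both components, against 3.84 to 1854 with 5-Ph-IAA alone, 0.991 to 8287 with TIR1 alone and 87.5 to 14135 with neither. The yolk sums of the groups overlapped. The lowest with both components, 8617 in replicate 2, was below the highest of the controls, 14135 in replicate 5 of neither. The remaining libraries with both components, at 24053 to 53264, were above every control. Of the 8 intestinal markers, 7 were higher against 5-Ph-IAA alone and 8 against TIR1 alone, and the part of these marker changes in the changes of *pmt-1*, *pmt-2* and *ahcy-1* was not tested. Of the other lists, 3 of 6 neuronal markers were lower in each comparison, 4 and 3 of 5 hypodermal markers were higher, 1 of 3 tested sperm markers was higher in each, and of 5 muscle markers 1 was lower in each and 1 higher against 5-Ph-IAA alone. In RNA of whole animals, a change in the number or share of cells that make a transcript and a change in the RNA of each cell cannot be told apart.

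**Figure D3:**
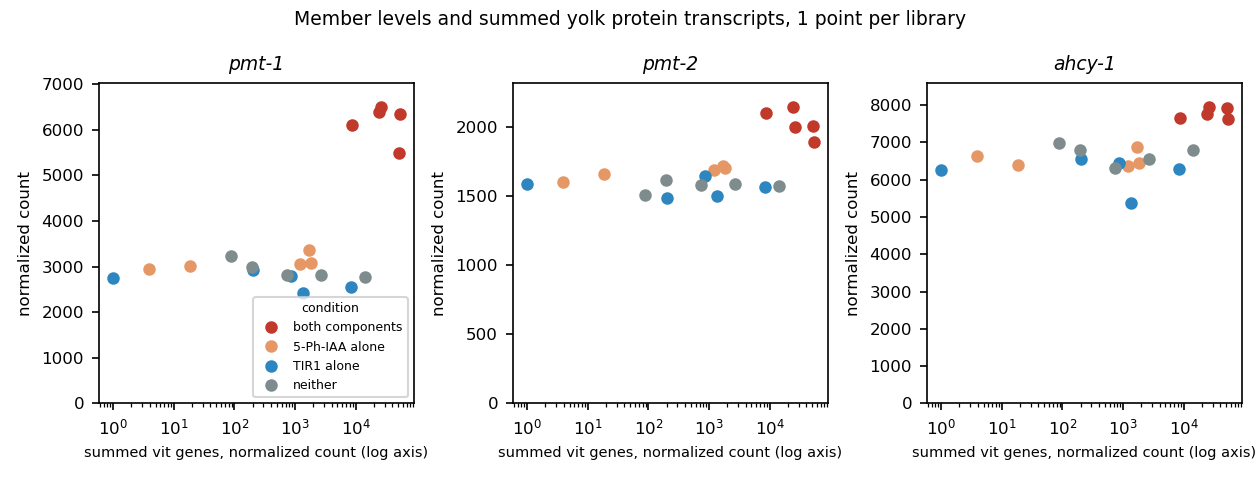
Normalized counts of *pmt-1*, *pmt-2* and *ahcy-1* (vertical axes, starting at 0) against the summed normalized count of the 6 *vit* genes (horizontal log axes), with 1 point per library colored by condition. Libraries with both components have 5486 to 6505 *pmt-1* counts at yolk sums of 8617 to 53264, and the 15 controls have 2417 to 3353 at yolk sums of 0.991 to 14135.

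Of the genes that regenerate methionine, *metr-1* followed the strain. *metr-1* (WBGene00010988, chromosome II, 10926561 to 10931078, plus strand) encodes the vitamin B12-dependent methionine synthase. Its normalized counts were 10016, 10908, 10466, 10252 and 10588 with both components, and 12379, 12703, 11683, 11196 and 13819 with 5-Ph-IAA alone. With TIR1 alone they were 10082, 9707, 10273, 9981 and 10722, and with neither 12594, 12897, 11264, 11024 and 13270. The 10 libraries of the strain with TIR1 had 9707 to 10908, and the 10 of the strain without it had 11024 to 13819, with no overlap. The share of all tested genes split by strain in this way was not counted. The fold change was 0.847 with both components against 5-Ph-IAA alone (log2 fold change −0.24 ± 0.05, adjusted p = 0.00131 from limma). Within the TIR1 strain, both components against TIR1 alone gave 1.03 (95% interval 0.955 to 1.11, adjusted p = 0.657).

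For TIR1 alone against neither, *metr-1* was the single gene of the 9 called, where 0.603% of all genes were called and 0.439% were lower. Its fold change was 0.833 (log2 fold change −0.26 ± 0.05, adjusted p = 0.0119 from limma). This call was lost without replicate 2 of TIR1 alone (adjusted p = 0.0508) and under quantile normalization (−0.19, adjusted p = 0.12) or equal library totals (−0.23, adjusted p = 0.194). Against 5-Ph-IAA alone quantile normalization gave −0.12 (adjusted p = 0.146). The interaction of both components for *metr-1* was 0.02 ± 0.07 (adjusted p = 0.9). The TIR1 transgene and any other difference between the strains cannot be told apart.

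*mthf-1* (WBGene00015512, chromosome II, 7773904 to 7777823, minus strand) encodes the reductase that makes the methyl-folate used by METR-1. Its normalized counts were 5960, 6625, 6314, 5736 and 5833 with both components, 6439, 7081, 6328, 6796 and 6755 with 5-Ph-IAA alone. It had 6122 to 6269 with TIR1 alone and 6229 to 6782 with neither. The values with both components and with 5-Ph-IAA alone overlapped, as did those of the 2 strains, and TIR1 alone against neither gave an adjusted p of 0.647. The fold change was 0.912 against 5-Ph-IAA alone (log2 fold change −0.13 ± 0.04, adjusted p = 0.0168 from limma) and 0.981 against TIR1 alone (95% interval 0.927 to 1.04, adjusted p = 0.705). The first call was lost under quantile normalization (adjusted p = 0.288), equal totals (0.116) and the oocyte covariate (0.733). It was also lost without replicate 4 of both components (0.0618) and without replicate 2 of 5-Ph-IAA alone (0.0597). The gene overlaps an exon of *C06A8.6* on the opposite strand by 11 bases, and the strand setting of the counting is not given in the sources used here.

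*sams-1* (WBGene00008205, chromosome X, 11965962 to 11969893, plus strand) encodes the SAM synthase best known in worms for supplying phosphatidylcholine synthesis. It had 4725, 5086, 4666, 4201 and 4342 normalized counts with both components. With 5-Ph-IAA alone it had 4263, 4450, 3769, 3835 and 4338, and with TIR1 alone 4147, 4286, 3949, 3753 and 4251. With neither component it had 3988, 4436, 3802, 3219 and 4156. The groups overlapped, and replicate 4 was the lowest library with both components, with TIR1 alone and with neither. The fold change was 1.11 against 5-Ph-IAA alone (95% interval 1.01 to 1.23, adjusted p = 0.112 from limma) and 1.13 against TIR1 alone (1.02 to 1.24, adjusted p = 0.0749). The second comparison was called without replicate 4 of both components (adjusted p = 0.0455) or replicate 4 of neither (0.0301), and when only the compared conditions were fitted (0.032). A fit with the replicate number as a block called *sams-1* in both comparisons, and its values are given with the other alternatives at the end.

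The other SAM synthases were much lower. *sams-3* (WBGene00015538, 5848657 to 5850843, plus strand) and *sams-4* (WBGene00015540, 5844061 to 5846369, minus strand) are neighbors on chromosome IV that point away from each other, with 2287 bases between them, and *sams-5* (WBGene00006416, 6277433 to 6279522, minus strand) lies on the same chromosome. *sams-3* had 419 ± 37.4 normalized counts with both components, 418 ± 37.1 with 5-Ph-IAA alone, 409 ± 31.7 with TIR1 alone and 448 ± 28.5 with neither (SD, n = 5 each). *sams-4* had 483 ± 38.2 with both components, 505 ± 44.0 with 5-Ph-IAA alone, 530 ± 46.1 with TIR1 alone and 527 ± 25.7 with neither. Neither gene separated the conditions. *sams-3* overlaps an exon of *C06E7.4* on the opposite strand by 18 bases, and the strand setting of the counting is not given here either. The log2 fold change of *sams-3* was 0.00 against 5-Ph-IAA alone (95% interval −0.14 to 0.15, adjusted p = 0.981 from limma) and 0.04 against TIR1 alone (−0.11 to 0.18, adjusted p = 0.795). Those of *sams-4* were −0.06 (−0.20 to 0.08, adjusted p = 0.585) and −0.13 (−0.27 to 0.01, adjusted p = 0.196). The sign for *sams-3* turned in both comparisons under several alternatives, equal totals and the oocyte covariate among them, and that for *sams-4* against 5-Ph-IAA alone with the covariate. *sams-5* had few reads, with 14.3 ± 6.28 normalized counts with both components, 13.5 ± 4.94 with 5-Ph-IAA alone, 12.7 ± 5.61 with TIR1 alone and 14.6 ± 3.28 with neither, and it was not called. The 95% interval of its fold change was 0.664 to 1.64 against 5-Ph-IAA alone and 0.708 to 1.75 against TIR1 alone, so the data are compatible with changes within these bounds.

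These paralogs are similar in sequence, so reads could be split among them, and the value of each alone is uncertain. Summed into 1 row, *sams-3*, *sams-4* and *sams-5* gave a log2 fold change of −0.03 ± 0.05 against 5-Ph-IAA alone (adjusted p = 0.772 from limma) and −0.05 ± 0.05 against TIR1 alone (adjusted p = 0.579). Per kb of exon, *sams-1* made up 81.0% ± 1.69 of the 4 synthase transcripts with both components, 79.0% ± 1.70 with 5-Ph-IAA alone, 78.5% ± 1.96 with TIR1 alone and 77.1% ± 1.78 with neither (SD, n = 5 each). The difference of the share with both components did not pass the test against 5-Ph-IAA alone (p = 0.103, two-sided exact permutation test) or TIR1 alone (p = 0.0714), each with an adjusted p of 0.254 over 12 ratio tests. The share was highest in replicate 2 and lowest in replicate 4 of every condition, an order that this unpaired test does not use. In every same-numbered pair the share was higher with both components than in each single-component control. It was also higher in each of those controls than with neither, and no paired test of the share was run. Without replicate 4 of both components the unadjusted exact p was 0.0476 and 0.0317, and without replicate 2 of TIR1 alone it was 0.0476 against TIR1 alone.

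Levels per kb of exon set the 9 genes in an order. Over all 20 libraries *ahcy-1* led with a mean of 4426 normalized counts per kb, followed by *metr-1* with 2860, *mthf-1* with 2324, *pmt-1* with 1977, *sams-1* with 1854, *pmt-2* with 1087, *sams-4* with 271, *sams-3* with 212 and *sams-5* with 9.26. The gene that moved in this order was *pmt-1*. With both components its 5 libraries held at least 2920 per kb, above *mthf-1* in 5 of 5 libraries, above *sams-1* in 5 of 5 and above the highest *metr-1* level of that condition, 2763 per kb. In the controls *pmt-1* was below *mthf-1* in every library and above *sams-1* in 1 of 5 with 5-Ph-IAA alone, 0 of 5 with TIR1 alone and 1 of 5 with neither, and *metr-1* was above both in each control library. *sams-4* and *sams-3* were close in every condition and changed places in 1 of the 5 libraries with both components.

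Among 13009 genes with a mean of at least 10, the transcript most like *pmt-2* over the 20 libraries was *adk-1*, adenosine kinase, the enzyme that removes the adenosine released by AHCY-1 (Pearson r = 0.96 on the log2 scale). It had 2817 ± 115 normalized counts with both components, 2185 ± 37.8 with 5-Ph-IAA alone, 2064 ± 36.7 with TIR1 alone and 2030 ± 81.7 with neither (SD, n = 5 each). Next came *hpo-6* (r = 0.941) and the acetyl-CoA carboxylase *pod-2* (r = 0.937), and *pmt-1* ranked ninth (r = 0.931). Those most like *sams-1* were the aquaporin *aqp-1* (r = 0.814), *pbo-1* (r = 0.792) and *R07B7.6* (r = 0.78). The libraries share their conditions and scaling, so these values are descriptions.

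Neighboring pathways were read from 6 lists with 83 genes, of which 82 were tested. The lists were chosen with earlier results of these data known, so their shares of calls are descriptions. With both components against 5-Ph-IAA alone 30 were called (36.6%, 22 higher and 8 lower), and against TIR1 alone 28 (34.1%, 22 higher and 6 lower), where 19.7% and 18.9% of all genes were called. None was called for 5-Ph-IAA alone against neither. For TIR1 alone against neither 1 was called, the choline kinase *cka-2*, with 178 ± 8.56 normalized counts with TIR1 alone and 138 ± 9.30 with neither (adjusted p = 0.0232 from limma), and it was chosen for mention after its values were seen. It was not called without replicate 1 of TIR1 alone or without replicate 1, 3 or 4 of neither.

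In the folate cycle and glycine cleavage list, which supplies one-carbon units, 6 of 13 genes rose against 5-Ph-IAA alone and 7 against TIR1 alone, with none lower and 6 shared. *K07E3.4* had 1575 ± 115 normalized counts with both components, 1116 ± 60.4 with 5-Ph-IAA alone and 1148 ± 51.2 with TIR1 alone (adjusted p = 6.58e-08 and 2.97e-07 from limma). *alh-3*, a formyltetrahydrofolate dehydrogenase, had 1365 ± 54.4 with both components, 1000 ± 77.0 with 5-Ph-IAA alone and 1013 ± 55.8 with TIR1 alone (adjusted p = 1.39e-06 and 2.82e-06). Both rose by less than 1.5-fold. *gcsh-1*, a glycine cleavage H protein, was called at very low levels, with 0 to 14 reads with both components and 0 to 4 in the controls. The median log2 fold change of the list was 0.11 and 0.23, beside −0.01 and −0.02 over all genes.

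The vitamin B12 and propionate list leaned the other way against 5-Ph-IAA alone, with 1 of 14 genes higher and 5 lower, but not against TIR1 alone, with 2 higher and 2 lower; the difference between the comparisons was not tested. *mrp-5*, an exporter of heme and vitamin B12, rose against both, with 3063 ± 157 normalized counts with both components, 2488 ± 96.0 with 5-Ph-IAA alone and 2551 ± 161 with TIR1 alone (adjusted p = 7.74e-06 and 4.46e-05 from limma). *mce-1*, the methylmalonyl-CoA epimerase, fell against both, with 546 ± 66.6 with both components, 673 ± 59.5 with 5-Ph-IAA alone and 637 ± 52.7 with TIR1 alone (adjusted p = 0.00594 and 0.0448).

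Homocysteine that is not remethylated leaves the cycle by transsulfuration, and *cth-1* had the largest change of that list against 5-Ph-IAA alone. *cth-1*, a cystathionine gamma-lyase, had 572 ± 50.5 normalized counts with both components, 215 ± 31.4 with 5-Ph-IAA alone, 214 ± 28.6 with TIR1 alone and 185 ± 25.4 with neither (SD, n = 5 each). Its log2 fold change was 1.42 against each single-component control (adjusted p = 2.16e-10 and 2.17e-10 from limma). Its more abundant paralog *cth-2*, outside the rule for named genes, had 1084 ± 119 with both components, 1305 ± 190 with 5-Ph-IAA alone and 1201 ± 226 with TIR1 alone (log2 fold change −0.26 and −0.13, adjusted p = 0.127 and 0.497). In all, 4 of the 10 genes tested rose against 5-Ph-IAA alone and none fell, and 3 rose and 2 fell against TIR1 alone. *cysl-3*, of the cysteine synthase family, had 116 ± 18.7 with both components, 86.7 ± 10.3 with 5-Ph-IAA alone and 68.4 ± 12.4 with TIR1 alone (adjusted p = 0.02 and 6.31e-05). *gcs-1*, the glutamate-cysteine ligase of glutathione synthesis, had 1030 ± 35.0 with both components, 946 ± 51.8 with 5-Ph-IAA alone and 939 ± 21.4 with TIR1 alone (adjusted p = 0.0407 and 0.0287).

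The Kennedy pathway, which uses the phosphocholine made by PMT-2, had 2 of 16 genes higher and 1 lower in each comparison, a share near that of all genes. *ept-1*, an ethanolaminephosphotransferase, had 421 ± 21 normalized counts with both components, 262 ± 14.3 with 5-Ph-IAA alone and 287 ± 6.72 with TIR1 alone (log2 fold change 0.68 and 0.55, adjusted p = 4.12e-09 and 1.78e-07 from limma). *pcyt-2.1*, which couples phosphoethanolamine to CDP, had 286 ± 27.8 with both components, 232 ± 19.5 with 5-Ph-IAA alone and 237 ± 14.8 with TIR1 alone (adjusted p = 0.00516 and 0.0128). Its paralog *pcyt-2.2*, also outside the rule, had 85.1 ± 15.3 with both components, 97.7 ± 8.22 with 5-Ph-IAA alone and 91.7 ± 10.4 with TIR1 alone (log2 fold change −0.21 and −0.12, adjusted p = 0.275 and 0.583). Of 16 SAM-dependent methyltransferases that use SAM on other substrates, 1 was higher and 2 were lower against 5-Ph-IAA alone and 0 were called against TIR1 alone.

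SBP-1 and lipogenic targets had the highest share of calls of the 6 lists in both comparisons. Of 13 genes, 8 rose against 5-Ph-IAA alone with none lower, and 8 rose and 1 fell against TIR1 alone. The median log2 fold change was 0.50 and 0.58. *pod-2*, the acetyl-CoA carboxylase of fatty acid synthesis, had 24596 ± 1625 normalized counts with both components, 11503 ± 776 with 5-Ph-IAA alone and 8892 ± 768 with TIR1 alone (log2 fold change 1.10 and 1.47, adjusted p = 3.88e-13 and 1.86e-15 from limma). The delta-9 desaturase *fat-6* had 1732 ± 326 with both components, 838 ± 239 with 5-Ph-IAA alone and 993 ± 161 with TIR1 alone (1.07 and 0.80, adjusted p = 4.81e-05 and 0.00148). Its paralog *fat-7* was called at low levels, with 4 to 46 reads with both components, 1 to 6 with 5-Ph-IAA alone and 1 to 2 with TIR1 alone, and reads of these similar genes could be split between them. With the oocyte marker sum as a covariate, 12 of the 82 pathway genes were called against 5-Ph-IAA alone and 14 against TIR1 alone, and that sum overlaps with the conditions.

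**Figure D4:**
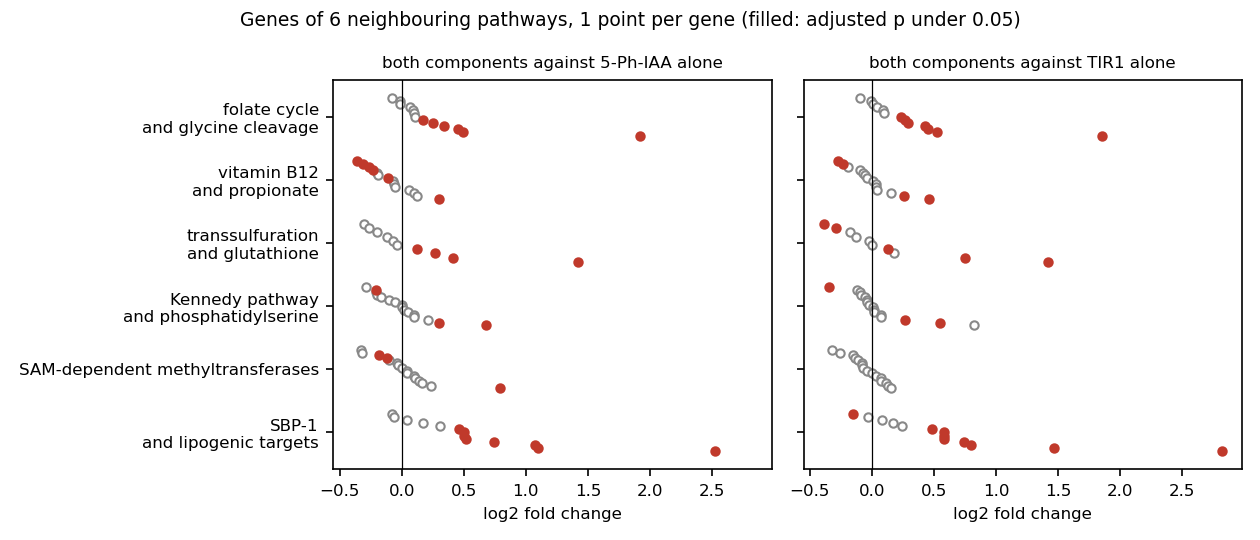
Log2 fold change (horizontal axes) of the genes of 6 neighboring pathways with both components against 5-Ph-IAA alone (left) and TIR1 alone (right), 1 point per gene, ordered within each list by value. Filled red points passed an adjusted p-value of 0.05. The SBP-1 list has 8 filled points above 0 in each panel, and the methyltransferase list has 0 filled points in the right panel.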

How the data were processed

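Whole-dauer RNA was depleted of ribosomal RNA and sequenced as single-end reads. The authors used FastQC, Trimmomatic, STAR, featureCounts and DESeq2 on the Galaxy platform with the WormBase WS284 release, and versions and the strand setting are not given in the sources used here. The deposited signal values are DESeq2 normalized counts per gene, 1 column per library. Dividing each column by the value of 1 read gave whole reads for 100% of values within 0.01. Of 46925 identifiers, 46921 were in the WBcel235 annotation (Ensembl), the source of coordinates and exon lengths, and 17335 genes were at 0 in every library.

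Because the values were already scaled by the authors, the test was limma 3.58.1 (R 4.3.3, mean-variance trend) on log2(normalized count + 1) for 17090 genes with a mean of at least 2. One mean per condition was fitted over 20 libraries, with Benjamini-Hochberg adjustment in each comparison. This scale understates changes of genes with few reads. Replicates are labelled as biological. Ratios within libraries were compared by exact permutation tests. The code was tested on simulated data.

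The 9 genes and all lists were chosen with earlier results of these data known. From each pathway list, the text names up to 3 genes in each direction with the largest change against 5-Ph-IAA alone among those called against both single-component controls, and for *sams-1* and *pmt-2* the 3 genes with the highest correlation. Alternatives were pseudocounts of 0.5 and 5, no filter or a minimum mean of 10, quantile normalization, equal totals, a fit of the compared conditions only, a replicate block, an oocyte marker covariate, edgeR 4.0.16 and DESeq2 1.42.0 on the recovered reads, a 1.5-fold cutoff, and each library left out. Marker lists covered oocyte, sperm, yolk, intestine, body wall muscle, hypodermis, neuron and dauer genes. Tables were handled in Python 3.11.15 with pandas 2.3.3, numpy 2.4.6 and scipy 1.17.1, and plots drawn with matplotlib 3.10.9.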

Additional observations from a re-analysis of the deposited data

Results flagged for a closer look

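Of 36 groups of 5 libraries (9 genes in 4 conditions), 2 had a value set apart from the others of its group by Dixon's criterion at the 95% level, which chance gives for about 1 in 20 groups. Both were replicate 2 of TIR1 alone, with a normalized count of 354 for *sams-3* and 5383 for *ahcy-1*, each the lowest of its group. Without that library *ahcy-1* kept its call against TIR1 alone.

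The effect of 5-Ph-IAA differed between the strain with TIR1 and the strain without it for 3 of the 9 genes, by limma's interaction term. The difference on the log2 scale was 1.12 for *pmt-1*, 0.37 for *ahcy-1* and 0.29 for *pmt-2*. For *pmt-2* it was 0.25 under equal library totals (adjusted p = 0.0653 from limma), and the other 2 kept their calls in all 30 alternatives other than the 1.5-fold cutoff. At that cutoff *pmt-1* was the only one of the 3 still called.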

How the results depend on the processing

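*pmt-1* and *pmt-2* kept their calls against both single-component controls under all 31 alternatives other than the 1.5-fold cutoff, which *pmt-2* did not pass. Log2 fold changes against 5-Ph-IAA alone and TIR1 alone were 0.97 to 1.14 and 1.14 to 1.33 for *pmt-1*. Those of *pmt-2* were 0.25 to 0.33 and 0.32 to 0.43. Values below are given in the order of both components against 5-Ph-IAA alone, both components against TIR1 alone, 5-Ph-IAA alone against neither, TIR1 alone against neither, and the interaction, where several apply. The cause of the moves was not tested. The 1.5-fold cutoff left 1, 1, 0, 0 and 1 of the 9 genes, 8, 7, 0, 0 and 5 pathway genes, and 1568, 1517, 5, 42 and 1151 of all genes. The oocyte covariate left 3 of the 9 genes against 5-Ph-IAA alone, 12, 14 and 10 pathway genes (both comparisons and the interaction) and 944, 1055 and 630 of all genes, where 3369, 3237 and 1840 were called without it. Quantile normalization left 3 of the 9 genes against 5-Ph-IAA alone, and it and equal totals left 0 for TIR1 alone against neither. Equal totals called 4 and 50 of all genes for 5-Ph-IAA alone and TIR1 alone against neither, DESeq2 called 18 and 181 and 2 pathway genes for TIR1 alone, and a fit of the compared conditions called 13 for 5-Ph-IAA alone, where limma called 7 and 103.

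The share of called genes that were higher against TIR1 alone was 61.0%, against 49.4% under quantile normalization and 50.8% under equal totals, against 5-Ph-IAA alone it was 57.5%, against 47.8% under quantile normalization, and for TIR1 alone against neither it was 27.2%, against 38.0% under equal totals. Small, uncalled log2 fold changes turned sign. *sams-3* against 5-Ph-IAA alone was −0.02 (quantile), −0.01 (equal totals, edgeR and DESeq2) and −0.19 (covariate), and against TIR1 alone −0.02 (equal totals) and −0.14 (covariate). With the covariate *sams-4* was 0.02 and *daf-16* was 0.03 against 5-Ph-IAA alone, and *daf-16* was 0.01, *metr-1* −0.02 and *mthf-1* 0.03 against TIR1 alone. *daf-16* was 0.03 against 5-Ph-IAA alone under quantile normalization, and *metr-1* was −0.02 against TIR1 alone under equal totals.

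Leaving out 1 library at a time gave 4 to 5, 3 to 4, 0, 0 to 1 and 3 of the 9 genes, 26 to 31, 24 to 29, 0, 0 to 2 and 16 to 20 pathway genes, and 2951 to 3415, 2788 to 3255, 4 to 9, 41 to 128 and 1589 to 1888 of all genes. For TIR1 alone against neither, 42 of all genes were called without replicate 2 of TIR1 alone, 65 without replicate 3 of neither and 41 without replicate 4 of neither. *sams-3* ranged over −0.03 to 0.05 and −0.02 to 0.07. The labels do not say what a replicate number shares, and the numbers did not meet the criterion for pairing, a correlation of deviations over 0.1 in every same-numbered pair. Correlations ran from −0.10 to 0.25 over all tested genes, with 3 of 30 pairs over 0.1. Over 7947 genes with a mean of at least 100, a check chosen after the data were seen, they ran from −0.36 to 0.73, with 19 of 30 over 0.1, so abundant genes held a partly shared pattern. From 1 to 7 of 10 libraries in each pair of conditions correlated best with their own number. With a replicate block 6, 4, 0, 1 and 3 of the 9 genes were called, *sams-1* being added in both comparisons (adjusted p = 0.00335 and 0.00132 from limma), with 9 pathway genes for TIR1 alone against neither and 45 and 488 of all genes for the single components.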
